A study of Mus musculus with 17 samples.

Results

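The primary granules of neutrophils are filled at the promyelocyte stage, and their genes are switched on in granulocyte-monocyte progenitors of the bone marrow. This group of genes holds 9 symbols of the deposited count table: Mpo, Elane, Prtn3, Ctsg, Calr, Srgn, Nkg7, Hp and Igfbp4. They were chosen by symbol, and all 9 were found among the 35321 genes of the table. All 9 were also among the 14920 genes that passed the filter on low counts and were tested.

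Polyadenylated RNA was sequenced in 17 libraries. The cells were hematopoietic stem and progenitor cells (HSPC), from which blood is formed, sorted out of wild-type C57BL/6J bone marrow. The PBS group (5 libraries, labelled day 0) came from mice given phosphate-buffered saline; the design text states that injections preceded harvest by 24 or 72 h, without saying which applied to PBS. The LPS 24 h and LPS 72 h groups (3 libraries each) came from mice injected into the peritoneum with lipopolysaccharide, the bacterial cell-wall component that triggers inflammation. The LPS+antibody 24 h and LPS+antibody 72 h groups (3 libraries each) were given LPS plus a blocking antibody against the interleukin-10 receptor. The amounts are 5 of LPS and 100 of antibody, in micrograms in the design text and in milligrams in the sample labels. The labels name no group given the antibody without LPS and no control antibody. The age and sex of the mice, and whether a library came from 1 mouse or from several, are not given, so p-values measure only the spread between these libraries.

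Primary granules, also called azurophil granules, store enzymes that kill ingested microbes. Myeloperoxidase makes hypochlorous acid from hydrogen peroxide, and the neutrophil serine proteases degrade proteins. In hematopoiesis, strong transcription of these genes is a mark of commitment to the granulocyte and monocyte lineages, and it is lost again before neutrophils mature. The study's title concerns exhaustion of stem cells under inflammation with impaired interleukin-10 receptor signalling, and the comparisons here ask how the granule genes stood after LPS, with and without the antibody.

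Total counts per library ranged from 10516722 to 16006001, and the 9 genes together held 0.494% to 1.92% of a library's counts. The lowest count of any of the 9 genes was 236 (Hp in PBS replicate 5), for which counting error alone is 6.51%. The scaling factor of LPS 24 h replicate 1 was 0.799, apart from the range of 0.947 to 1.12 in the other libraries, and the recorded names of both 24 h libraries numbered 1 and of the PBS libraries are written in other styles than the rest. Whether these styles mark a batch is not stated, and for PBS a batch and the treatment cannot be told apart. All 4 markers of the progenitor sort (Kit, Ly6a, Cd34 and Flt3) were detected in every library, with Kit at 228 to 589 CPM (counts scaled to library size). Markers of mature neutrophils (Ltf, Camp, Ngp, Mmp8, Cxcr2 and Retnlg) summed to 6.56 to 522 CPM over the 17 libraries, with Retnlg at 0 in 2 of them.

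The promoters of the 4 enzyme genes are shown because these genes varied together across libraries. They are RefSeq sequences on GRCm38.p6, printed 5′ to 3′ on the coding strand from 250 bases before the start site. Capitals mark GAGGAA, the core that the myeloid factor PU.1 recognises, and the print stops at the first base that GENCODE annotates as exon. The stretches are chr11:87793534-87793580 (plus strand) for Mpo, chr10:79886062-79886246 (plus) for Elane, chr10:79879417-79879613 (plus) for Prtn3 and chr14:56102575-56102824 (minus) for Ctsg.
Mpo: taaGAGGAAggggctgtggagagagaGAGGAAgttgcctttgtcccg
Elane: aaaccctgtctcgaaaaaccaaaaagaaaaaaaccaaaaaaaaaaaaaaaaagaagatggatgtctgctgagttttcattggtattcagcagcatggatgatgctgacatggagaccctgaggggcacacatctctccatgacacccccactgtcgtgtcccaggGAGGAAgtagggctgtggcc
Prtn3: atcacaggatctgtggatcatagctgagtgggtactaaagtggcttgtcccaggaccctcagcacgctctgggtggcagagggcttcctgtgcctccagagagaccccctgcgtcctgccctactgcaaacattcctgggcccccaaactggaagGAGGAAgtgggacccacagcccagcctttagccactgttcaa
Ctsg: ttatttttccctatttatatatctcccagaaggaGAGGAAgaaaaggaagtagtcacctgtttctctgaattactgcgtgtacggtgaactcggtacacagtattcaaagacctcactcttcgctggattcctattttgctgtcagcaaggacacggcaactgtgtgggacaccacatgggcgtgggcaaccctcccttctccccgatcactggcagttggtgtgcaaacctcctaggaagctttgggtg
Windows of 300 bases around the RefSeq start were searched on both strands for 4 motifs, with windows for 8 of the 9 genes (all but Hp). In the 4 enzyme genes, matches of different motifs overlapped in 0 cases. GAGGAA was found in 4 of the 4 enzyme genes and in 28.3% of all 32851 windows of that length. Counted from the start site, its first base lay at -247 and -224 in Mpo, at -85 in Elane, at -95 in Prtn3 and at -216 in Ctsg, on the coding strand in each case. TTNNGNAA, the letters recognised by C/EBP factors, was found in 0 of the 4 windows against 40.7% of all windows. TGTGGT, recognised by RUNX factors, was found in 1 of the 4 (Ctsg) against 16.8%, and AACNG, recognised by MYB, in 4 of the 4 against 80.3%. These matches describe letters in these windows and no binding was measured.

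Mpo, myeloperoxidase (chr11:87793581-87804413, plus strand, GENCODE M21 on GRCm38), was the most abundant of the 9 genes per length in every group, at 1580 ± 1011 CPM per kilobase of exon in PBS (SD, n = 5). Its level was 4186, 2928, 7886, 10107 and 1938 CPM in PBS replicates 1 to 5. It was 9987, 5645 and 7088 CPM at LPS 24 h and 4546, 8532 and 9234 CPM at LPS 72 h. With antibody it was 2830, 6171 and 7742 CPM at 24 h and 2678, 7062 and 7920 CPM at 72 h. The highest and the lowest of all 17 libraries were both PBS libraries, 5.22-fold apart, so every other group lay within the PBS range. By group mean, Mpo ran from LPS 24 h (7573 ± 2211 CPM, n = 3) to PBS (5409 ± 3461 CPM, n = 5), and each neighbour in that order differed by less than the SD of either group.

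Elane, neutrophil elastase (chr10:79886247-79888215, plus strand), was at 668, 452, 1543, 1960 and 117 CPM in the 5 PBS libraries. It was 1971, 533 and 668 CPM at LPS 24 h, and 550, 1021 and 1208 CPM at LPS 72 h. With antibody it was 444, 1016 and 1037 CPM at 24 h and 243, 742 and 1024 CPM at 72 h. PBS replicate 5 was the lowest library and LPS 24 h replicate 1 the highest, 16.9-fold apart, and the other libraries of all 5 groups lay between them. The highest library depended on the scaling. With library totals alone, PBS replicate 4 was highest, at 2006 CPM against 1573 CPM in LPS 24 h replicate 1. Per length, Elane was second to Mpo in PBS, at 963 ± 786 CPM per kilobase (SD, n = 5).

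Prtn3, proteinase 3 (chr10:79874476-79883174, plus strand), lies 3072 bases from Elane on the same strand. Its level was 1047, 557, 1263, 1673 and 267 CPM in the PBS libraries, and 3601, 1345 and 1324 CPM at LPS 24 h. At LPS 72 h it was 813, 1599 and 1337 CPM. With antibody it was 761, 2068 and 2048 CPM at 24 h and 338, 1150.5 and 1987 CPM at 72 h. LPS 24 h replicate 1 stood far above the other libraries, while the remaining pair at LPS 24 h lay inside the PBS range. With library totals alone as the scaling, that library was at 2875 CPM and the next, LPS+antibody 24 h replicate 2, at 2010 CPM. Prtn3 shares 159 exon bases with Plppr3 on the opposite strand, and since the strand setting of the counting is not given, reads of these bases cannot be told apart.

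Ctsg, cathepsin G (chr14:56099881-56102574, minus strand), is the third serine protease of the granule. It was at 746, 437, 1016, 1203 and 178 CPM in PBS, at 1728, 928 and 1180 CPM at LPS 24 h, and at 549, 1136 and 1147 CPM at LPS 72 h. With antibody it was 661, 1372 and 1536 CPM at 24 h and 501, 1702 and 1557 CPM at 72 h. PBS replicate 5 was again the lowest library and LPS 24 h replicate 1 the highest, 9.73-fold apart. With library totals alone, LPS+antibody 72 h replicate 2 was highest, at 1732 CPM against 1380 CPM in LPS 24 h replicate 1. For Elane, Prtn3 and Ctsg, as for Mpo, each neighbour in the order of group means differed by less than the SD of at least 1 of the 2 groups.

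**Figure D1:**
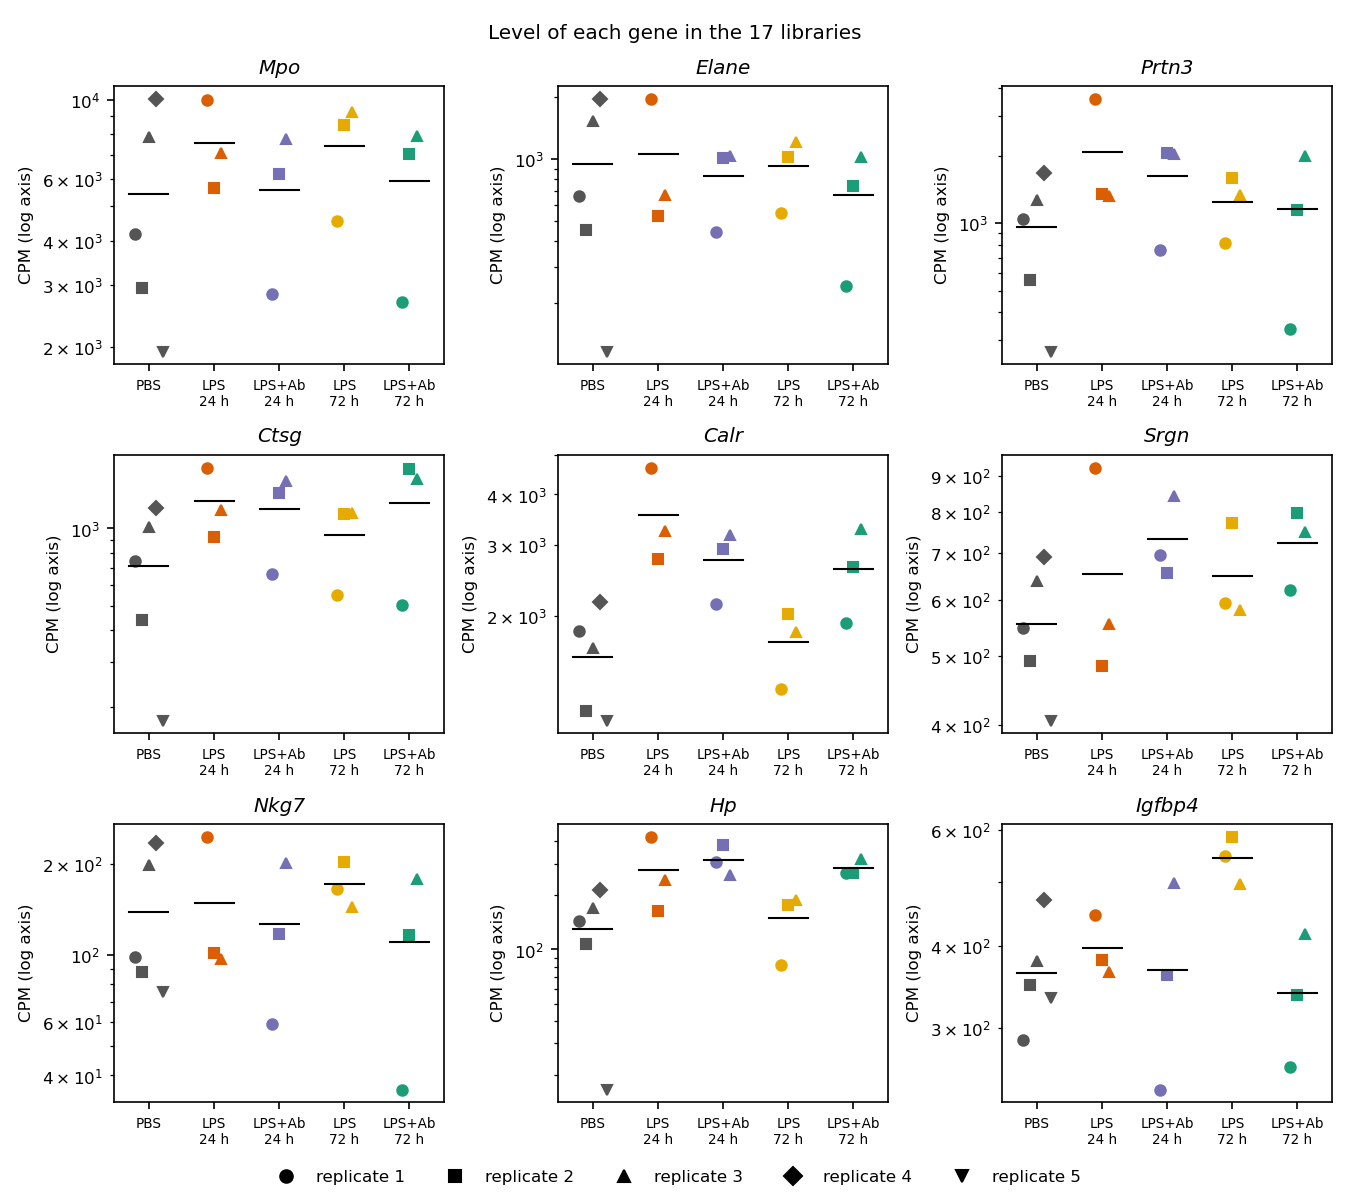
Level of each of the 9 genes in the 17 libraries, as CPM on a log axis, with 1 point per library, the marker shape giving the replicate number and the black bar the group mean. PBS replicate 5 is the lowest library for 7 of the 9 genes, and Mpo spans 1938 to 10107 CPM within PBS alone.

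The 4 enzyme genes differed more between libraries of the same group than most genes did. On the log2 CPM scale their SD within groups was 0.79 for Mpo, 1.18 for Elane, 0.96 for Prtn3 and 0.86 for Ctsg, against a median of 0.29 over all tested genes. Those values exceeded the within-group SD of 91.4%, 97.3%, 95.3% and 93.2% of tested genes, in the same order. Differences between groups made up 15.4% of the variance of Mpo, 5.94% of Elane, 24.0% of Prtn3 and 25.4% of Ctsg, against a median of 47.4% over all tested genes. Means of so few libraries differ even without any effect of the group, so these uncorrected shares do not measure such an effect. Nkg7 and Hp were alike in spread, with within-group SDs of 0.81 and 0.95, whereas Calr (0.38), Srgn (0.30) and Igfbp4 (0.30) lay closer to the median gene.

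The 4 enzyme genes varied together between libraries. Over the 17 libraries, Pearson's r between the 6 pairs of the 4 enzyme genes ranged from 0.86 to 0.92 in log2 CPM, and from 0.94 to 0.96 after each group's mean was removed. Without PBS replicate 5 and LPS+antibody 72 h replicate 1, the libraries farthest from the median of Mpo, the 6 values ranged from 0.68 to 0.86. These values describe libraries in which both genes of a pair share the same depth and group. In bulk RNA, fewer cells of a type and less RNA per cell cannot be told apart. Stem cell markers (Mecom, Hlf, Procr, Meis1 and Mllt3) differed within PBS too: PBS replicate 5, lowest in Mpo, had their highest sum at 412 CPM, and PBS replicate 4, highest in Mpo, their lowest at 198 CPM. The summed progenitor sort markers were likewise highest in PBS replicate 5 (1950 CPM) and lowest in replicate 4 (1396 CPM). Their part in the spread of the granule genes was not tested.

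**Figure D2:**
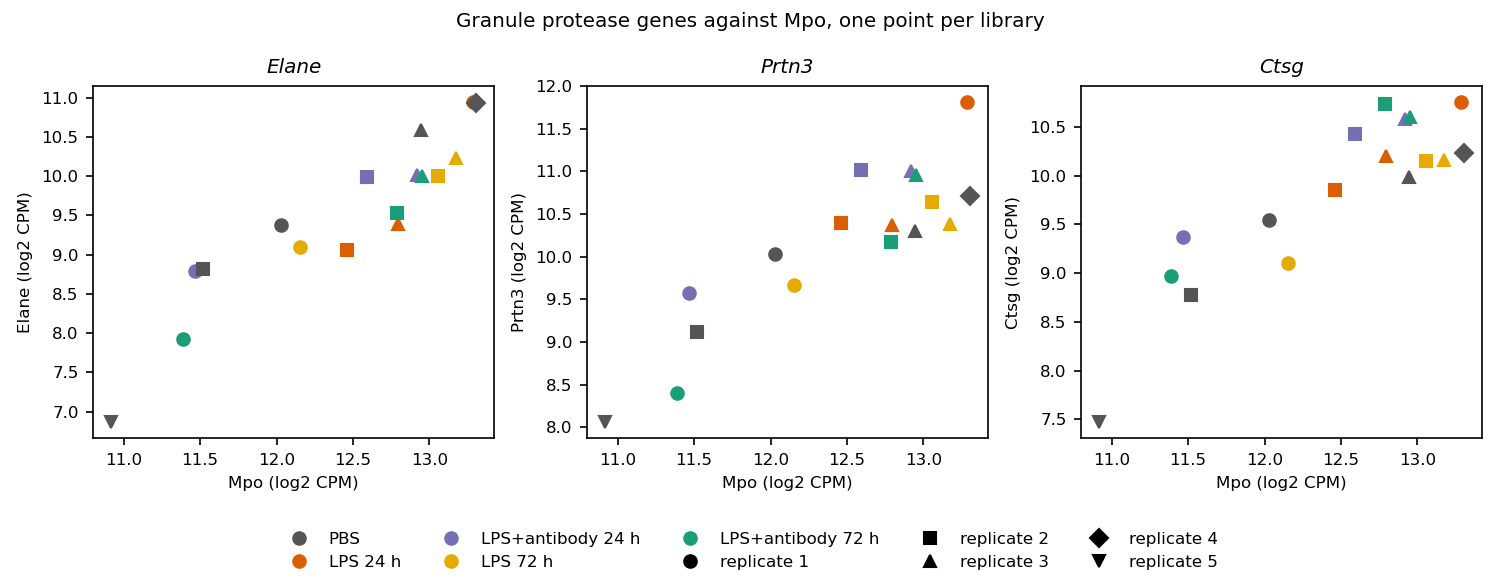
Log2 CPM of Elane, Prtn3 and Ctsg against that of Mpo, with 1 point per library, colour for the group and marker shape for the replicate number. Libraries of all 5 groups lie along 1 rising band, with PBS replicate 5 at the lower left of each panel.

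The 5 genes outside the group whose log2 CPM followed the mean of the 4 enzyme genes most closely over 17 libraries were Anxa3 (Pearson's r 0.99), Cldn15 (0.98), 1700020L24Rik (0.96), Gm11505 (0.95) and Tfec (0.95). Anxa3 encodes annexin A3, which is known from neutrophil granules. Gm11505 is annotated antisense to Mpo, with which it shares 512 exon bases, and reads of the 2 genes cannot be told apart without the strand setting. Without LPS 24 h replicate 1 the same 5 genes led, and without the PBS group 3 of the 5 did. Within the granule group, Nkg7 had an r of 0.79 to that mean, Srgn 0.72, Calr 0.72, Hp 0.72 and Igfbp4 0.55.

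Calr was the only one of the 9 genes that was called, meaning an adjusted p below 0.05, in any of the 9 comparisons by edgeR. It encodes calreticulin, a calcium-binding chaperone of the endoplasmic reticulum (ER) that binds newly made glycoproteins, the myeloperoxidase precursor among them. Calr (chr8:84841850-84846934, minus strand) was at 1838, 1164, 1667, 2169 and 1104 CPM in PBS, at 4659, 2778 and 3244 CPM at LPS 24 h, and at 1318, 2030 and 1825 CPM at LPS 72 h. With antibody it was 2149, 2936 and 3168 CPM at 24 h and 1926, 2646 and 3293 CPM at 72 h. All 3 LPS 24 h libraries lay above all PBS and all LPS 72 h libraries, while 1 antibody library at each time fell inside the PBS range. By mean, LPS 24 h (3560 ± 980 CPM), LPS+antibody 24 h (2751 ± 534) and LPS+antibody 72 h (2622 ± 684) stood above LPS 72 h (1724 ± 366) and PBS (1588 ± 453). The step between LPS+antibody 72 h and LPS 72 h exceeded the SD of both groups, and the other steps between neighbours did not.

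At 24 h after LPS, Calr was 2.24-fold above PBS and the granule enzymes were not called. The log2 change of Calr was 1.16 (SE 0.25, adjusted p = 0.0026, edgeR's quasi-likelihood test with Benjamini-Hochberg adjustment over all tested genes). Of the 9 genes 1 was called, higher, where 37.6% of all tested genes were called, 19.1% higher and 18.5% lower. Only for Calr did the libraries of the 2 groups not overlap, against 42.8% of all tested genes. The log2 changes of the enzymes were 0.49 for Mpo (SE 0.49), 0.16 for Elane (SE 0.69), 1.12 for Prtn3 (SE 0.57) and 0.84 for Ctsg (SE 0.51), with adjusted p-values of 0.459, 0.875, 0.136 and 0.206. LPS 24 h replicate 1 carried much of the protease values: without it Prtn3 stood at 0.48 and Elane at -0.65, a turned sign. Hp stood at 1.08 (SE 0.51, adjusted p = 0.104), and Srgn, Nkg7 and Igfbp4 at 0.24, 0.09 and 0.13. The median over the 9 genes was 0.49, against -0.03 over all tested genes.

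Between 24 and 72 h after LPS, Calr fell by 1.05 on the log2 scale (SE 0.29, adjusted p = 0.0124). It was the 1 gene of the 9 that was called, where 31.1% of all tested genes were called, 14.7% higher and 16.4% lower. This call was lost without LPS 24 h replicate 1 (log2 change -0.78, adjusted p = 0.0702) and without LPS 72 h replicate 1 (-0.89, adjusted p = 0.0624). The libraries of the 2 times did not overlap for Calr (lower at 72 h) and Igfbp4 (higher at 72 h), against 45.4% of all tested genes. The enzymes changed by -0.03 (Mpo, SE 0.56), -0.19 (Elane, SE 0.78), -0.74 (Prtn3, SE 0.66) and -0.44 (Ctsg, SE 0.58), none of them called. Without LPS 24 h replicate 1, Elane stood at 0.65 and Prtn3 at -0.07.

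At 72 h after LPS alone, none of the 9 genes was called against PBS by edgeR, with 1 unadjusted p below 0.05 (Igfbp4), and DESeq2's Wald test called 0 and limma's voom called 1 (Igfbp4). Of all tested genes, edgeR called 0.0201% (3) in that comparison, DESeq2 called 178 and voom called 2170. Igfbp4 (chr11:99041244-99054392, plus strand), which encodes a binding protein of insulin-like growth factors, was at 288, 349, 379, 469 and 334 CPM in PBS and at 548, 587 and 496 CPM at LPS 72 h. All 3 LPS 72 h libraries lay above every PBS library, where 12% of all tested genes had groups without overlap, and the log2 change was 0.58 (SE 0.20, adjusted p = 0.318). The log2 changes of the enzymes were 0.46 (Mpo, SE 0.49), -0.03 (Elane, SE 0.69), 0.38 (Prtn3, SE 0.58) and 0.40 (Ctsg, SE 0.51), and that of Calr was 0.12 (SE 0.25).

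With antibody, Calr was higher than PBS at 24 h by 0.79 on the log2 scale (SE 0.25, adjusted p = 0.0325). This was 1 call among the 9 genes, where 24.2% of all tested genes were called, 11.7% higher and 12.5% lower. The call rested on few libraries: it was lost without PBS replicate 2 (adjusted p = 0.0738), PBS replicate 5 (0.0653), LPS+antibody 24 h replicate 2 (0.111) or replicate 3 (0.0928). It was also lost with the replicate number as a block (0.82, adjusted p = 0.0696) and with a 2-fold minimum. Hp (chr8:109575128-109579172, minus strand) encodes haptoglobin, which binds free hemoglobin and is carried in neutrophil granules. It was at 144, 107, 170, 215 and 16.6 CPM in PBS and at 308, 380 and 259 CPM in LPS+antibody 24 h, with no overlap of the groups, as for 31% of all tested genes. PBS replicate 5 lay apart from the other PBS libraries in Hp on the log2 scale. The log2 change of Hp, 1.27 (SE 0.51, adjusted p = 0.0768), was not called, although it was without PBS replicate 4 (adjusted p = 0.0495) or PBS replicate 5 (1.01, adjusted p = 0.0474). Mpo stood at 0.05 (SE 0.50), Elane at -0.19 (SE 0.70), Prtn3 at 0.76 (SE 0.58) and Ctsg at 0.73 (SE 0.51).

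At 72 h with antibody, none of the 9 genes was called against PBS by edgeR, with 2 unadjusted p-values below 0.05, while DESeq2 and voom each called 1 (Calr). Of all tested genes, edgeR called 13.2%, 6.81% higher and 6.43% lower, while DESeq2 called 2917 of them and voom 3053. Calr stood at 0.72 (SE 0.25, adjusted p = 0.0636) and was called without PBS replicate 4 (0.86, adjusted p = 0.0402). Hp, at 267, 266 and 321 CPM, lay above every PBS library, where 26.9% of all tested genes had groups without overlap, and its log2 change was 1.12 (SE 0.51, adjusted p = 0.14), or 0.86 (adjusted p = 0.104) without PBS replicate 5. The enzymes stood at 0.12 (Mpo, SE 0.50), -0.50 (Elane, SE 0.71), 0.27 (Prtn3, SE 0.58) and 0.81 (Ctsg, SE 0.51). Prtn3 moved to 0.73 without LPS+antibody 72 h replicate 1 and to -0.37 without its replicate 3. These 4 comparisons share the same PBS libraries and are not independent of one another.

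**Figure D3:**
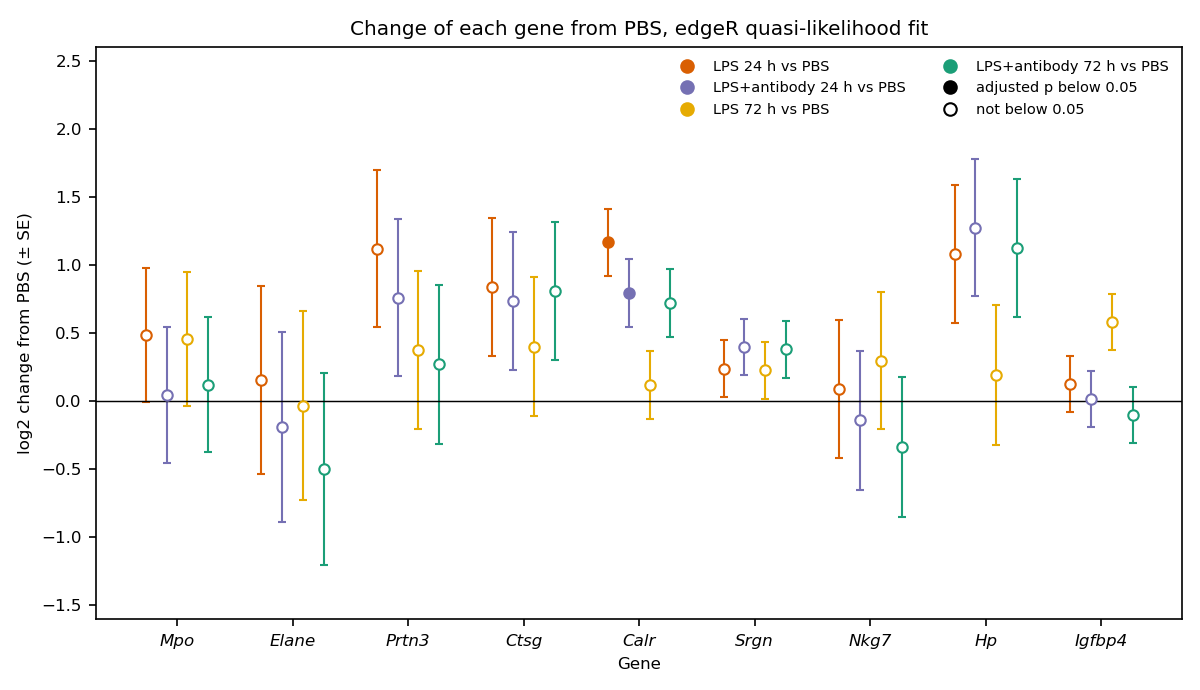
Log2 change from PBS of each of the 9 genes in the 4 other groups, with bars of 1 SE derived from the edgeR test and filled points where the adjusted p is below 0.05. The filled points are those of Calr at 24 h, at 1.16 after LPS and 0.79 after LPS with antibody.

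The antibody's own contrast at 24 h, LPS with antibody against LPS, called 0 of the 9 genes and 0% of all tested genes by edgeR. At an unadjusted p below 0.05 it gave 0 of the 9 and 273 of all tested genes, and DESeq2 and voom also called 0 of the 9. Calr stood at -0.37 (SE 0.28), Mpo at -0.44 (SE 0.56), Elane at -0.35 (SE 0.78), Prtn3 at -0.36 (SE 0.66) and Ctsg at -0.10 (SE 0.58). Without LPS 24 h replicate 1, Elane stood at 0.49 and Prtn3 at 0.30. No gene of the 9 had groups without overlap, against 3.15% of all tested genes.

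The antibody's contrast at 72 h called 0 of the 9 genes by edgeR, with 1 unadjusted p below 0.05, where 15.1% of all tested genes were called, 8.64% higher and 6.48% lower. DESeq2 and voom each called 1 gene of the 9, Igfbp4, where they called 3029 and 4433 of all tested genes. Igfbp4 was at 262, 338 and 417 CPM with antibody against 548, 587 and 496 CPM without, at a log2 difference of -0.68 (SE 0.23, adjusted p = 0.0595), and without LPS+antibody 72 h replicate 3 it was called (-0.86, adjusted p = 0.0441). Hp was at 267, 266 and 321 CPM with antibody against 82.3, 177 and 188 CPM without (0.93, SE 0.58, adjusted p = 0.281). For these 2 genes no library of one group reached into the other group, lower with antibody for Igfbp4 and higher for Hp, as for 33.2% of all tested genes. Calr stood at 0.60 (SE 0.28, adjusted p = 0.154), with 1 antibody library inside the range of LPS 72 h.

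From 24 to 72 h with antibody, 0 of the 9 genes and 0% of all tested genes were called by edgeR, with 0 and 635 unadjusted p-values below 0.05, and DESeq2 and voom called 0 of the 9. Calr changed by -0.07 (SE 0.28) over that interval, and none of the 9 genes had groups without overlap, against 9.26% of all tested genes. Whether the antibody's contrast differed between 72 and 24 h was tested as an interaction. It called 0 of the 9 genes, with 1 unadjusted p below 0.05 and 0 calls by DESeq2 or voom, where 6.35% of all tested genes were called, 4.03% higher and 2.32% lower. For Calr the difference was 0.98 (SE 0.40, adjusted p = 0.15), and for the enzymes it ranged from -0.12 (Elane, SE 1.10) to 0.51 (Ctsg, SE 0.81).

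Over the 36 tests of the 4 enzyme genes in these 9 comparisons, edgeR gave 0 calls, 0 unadjusted p-values below 0.05 and a lowest adjusted p of 0.136, and no alternative setting called any of them. Leaving out 1 library moved 11 of these 36 values by over 1.5 times and turned the sign of 19. The SEs of their log2 changes were 0.49 to 0.78 in the pairwise comparisons, against 0.25 to 0.29 for Calr, so a change of a given size was less detectable in them.

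Srgn and Nkg7 were not called either. Srgn (chr10:62493833-62527451, minus strand) encodes serglycin, the proteoglycan that holds granule proteases in storage, and ranged from 406 CPM (PBS replicate 5) to 924 CPM (LPS 24 h replicate 1), 2.28-fold. Its group means lay between 555 ± 113 CPM in PBS and 731 ± 99.2 CPM at LPS+antibody 24 h, and neighbours in that order differed by less than the SD of either group. Nkg7 (chr7:43437073-43438249, plus strand) encodes a granule membrane protein best known from cytotoxic lymphocytes, and ranged from 35.9 CPM (LPS+antibody 72 h replicate 1) to 246 CPM (LPS 24 h replicate 1). With library totals alone, the highest library was LPS+antibody 72 h replicate 2 for Srgn (812 CPM) and PBS replicate 4 for Nkg7 (241 CPM). Markers of T and NK cells (Cd3e, Cd3d, Cd3g, Gzma, Prf1, Klrd1, Klrb1c, Ncr1, Ccl5 and Trac) summed to 9.83 to 386 CPM. The highest sum, of which Ccl5 made up 367 CPM, was in the library with the lowest Nkg7.

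Reads of each gene per 100 Mpo reads of the same library do not depend on the scaling between libraries. They still carry the spread of Mpo in genes that vary less or more than Mpo does. In PBS, Srgn stood at 20.9 per 100 Mpo reads in replicate 5, lowest in Mpo, and at 6.82 in replicate 4, highest in Mpo, while Elane stood at 6.02 and 19.4 in the same libraries. This measure was added after the data were seen. Ctsg stood at 17.8, 14.9, 12.9, 11.9 and 9.16 reads per 100 Mpo reads in PBS, and at 17.3, 16.4 and 16.7 at LPS 24 h. With antibody it was 23.4, 22.2 and 19.8 at 24 h and 18.7, 24.1 and 19.7 at 72 h, against 12.1, 13.3 and 12.4 at LPS 72 h. Every library with antibody thus lay above every library without it, by a narrow gap (18.7 against 17.8). How many of all tested genes split in this way was not computed, and the shares below are for pairs of groups. For antibody against LPS alone the exact permutation p was 0.1 at each time, two-sided, the smallest that 3 against 3 libraries allow, and against PBS it was 0.0357 at each time. Over the 14919 other tested genes, the ratio to Mpo had groups without overlap in 2.35% (antibody at 24 h), 8.33% (antibody at 72 h), 2.57% (LPS+antibody 24 h against PBS) and 2.05% (LPS+antibody 72 h against PBS). None of the 64 ratio tests passed the Benjamini-Hochberg adjustment over them, whose lowest value was 0.377.

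The other ratios to Mpo separated fewer groups. Prtn3 stood at 29.0 ± 3.96 reads per 100 Mpo reads in LPS+antibody 24 h (SD, n = 3) against 18.1 ± 4.3 in PBS (n = 5), with no overlap (exact permutation p = 0.0357, two-sided, adjusted 0.377). Elane did not separate from PBS in any group: its means were 15.3 ± 5.51 in PBS, 12.9 ± 5.95 at LPS 24 h and 12.4 ± 0.61 at LPS 72 h. Hp was at 5.93 ± 3.50 in LPS+antibody 72 h against 1.97 ± 0.14 at LPS 72 h, again without overlap (exact p = 0.1, adjusted 0.377). Its highest ratio within LPS+antibody 72 h, 9.97, was in replicate 1, the library of that group lowest in Mpo. Nkg7 was lower in LPS+antibody 72 h, at 1.75 ± 0.46, than in PBS, at 2.82 ± 0.67 (exact p = 0.0179, adjusted 0.377). In all, 15 of the 64 comparisons (23.4%) had libraries that did not overlap, where 5.34% did over all other tested genes in the same 8 comparisons. They were 2 of 8 for the antibody at 24 h (Ctsg and Srgn, 2.35%) and 3 at 72 h (Ctsg, Calr and Hp, 8.33%). Against PBS they were 2 at LPS+antibody 24 h (Ctsg and Prtn3, 2.57%) and 3 at LPS+antibody 72 h (Ctsg, Nkg7 and Hp, 2.05%). Besides the 4 comparisons given, they were 0 of 8 at LPS 24 h against PBS (8.57% of all other tested genes), 0 at LPS 72 h against PBS (1.86%), 3 from LPS 24 h to 72 h (Ctsg, Calr and Hp, 16.2%) and 2 from 24 to 72 h with antibody (Elane and Prtn3, 0.757%). The ratio of a gene that does not vary with Mpo carries all of Mpo's spread, so that share is no like-for-like background and nothing particular to the 9 genes is read from it.

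**Figure D4:**
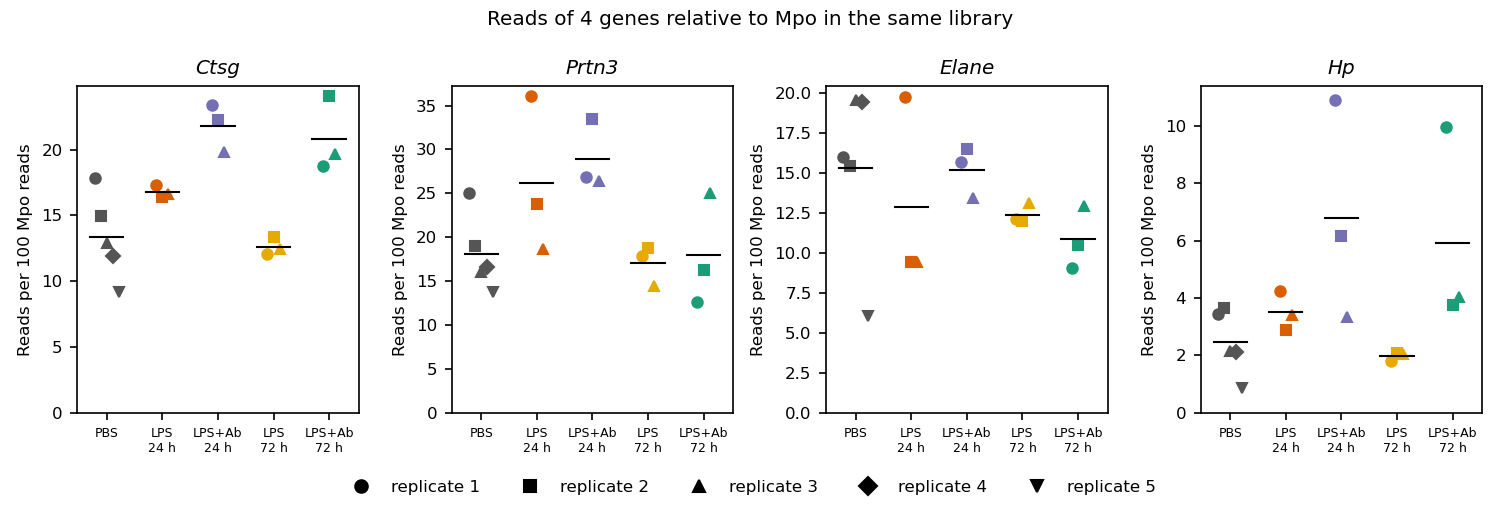
Reads of Ctsg, Prtn3, Elane and Hp per 100 Mpo reads of the same library, with 1 point per library, marker shape for the replicate number and a black bar for the group mean, on axes that start at 0. For Ctsg the 6 antibody libraries lie between 18.7 and 24.1 and the 11 others reach 17.8, and for Elane the groups overlap PBS.

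Most of the ER protein folding genes listed rose with Calr at 24 h after LPS. Of 12 folding partners tested, 10 were called higher and 0 lower, where 19.1% and 18.5% of all tested genes were, with a median log2 change of 0.88 against -0.03 over all tested genes. This list and those below were chosen with earlier results of these data known. Their counts beside the share over all tested genes, here and below, are therefore descriptive and no test of a list. The largest rises were those of Sdf2l1 (1.48, SE 0.33, adjusted p = 0.00303) and Manf (1.39, SE 0.28, adjusted p = 0.00198). Without LPS 24 h replicate 1, 5 of the 12 were called. From 24 to 72 h after LPS alone 8 were called lower, where 16.4% of all tested genes were, led by Sdf2l1 (-1.63, SE 0.38, adjusted p = 0.005) and Hspa5 (-1.47, SE 0.31, adjusted p = 0.00265), 4 without LPS 24 h replicate 1 and 5 without LPS 72 h replicate 1. With antibody at 24 h, 4 were called higher than PBS (Sdf2l1, Manf, Hspa5 and Dnajb11), where 11.7% of all tested genes were, a count that fell to 0 without LPS+antibody 24 h replicate 2 and to 1 without its replicate 3 or without PBS replicate 2, 3 or 5, and rose to 7 without its replicate 1. Markers of other cells moved in the same comparisons. The 4 mast cell and basophil markers (Cpa3, Mcpt8, Ms4a2 and Fcer1a) had a median log2 change of 1.18 at 24 h after LPS, with 1 called higher, and of -2.87 from 24 to 72 h, with 4 called lower. Their summed level was 109 to 329 CPM at LPS 24 h, 52.4 to 184 CPM in PBS and 35.98 to 57.1 CPM at LPS 72 h, and none of the 4 was at 0 in any library. The median of the 4 plasma cell markers (Jchain, Mzb1, Sdc1 and Xbp1) went the other way. It was -2.77 at 24 h after LPS, with 3 called lower, and 2.54 from 24 to 72 h, with 3 called higher. For the 6 erythroid markers the medians were 0.70, with 0 called, and -3.35, with 2 called lower. The progenitor sort markers summed to 866 to 978 CPM at LPS 24 h, below the 1396 to 1950 CPM of PBS, with 2 of the 4 called lower, 0 higher and 1 with a positive log2 change. The part of these marker sets in the changes of the folding genes and of Calr was not tested.

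At 72 h, the antibody's contrast called 3 of the 12 folding partners higher, where 8.64% of all tested genes were. Hspa5, the chaperone BiP that holds unfolded proteins in the ER, stood at 1451 ± 530 CPM with antibody and 677 ± 81.7 CPM without (log2 1.10, SE 0.31, adjusted p = 0.0259). Dnajb11, a co-chaperone of BiP, was at 163 ± 30.9 against 90.3 ± 7.88 CPM (0.86, SE 0.20, adjusted p = 0.0123), and Canx, calnexin, a membrane-bound relative of calreticulin, differed by 0.61 (SE 0.20, adjusted p = 0.049). No partner was called without LPS 72 h replicate 1, and 1 was called without LPS 72 h replicate 2 or without LPS+antibody 72 h replicate 3. Calr itself was not called in this contrast, as given above. Against PBS at 72 h with antibody, Hspa5 (0.88, SE 0.27, adjusted p = 0.0406) and Dnajb11 (0.75, SE 0.18, adjusted p = 0.0164) were called higher, where 6.81% of all tested genes were. Without LPS+antibody 72 h replicate 3 neither was, and Hspa5 was lost also without PBS replicate 2, 3 or 5. The mast cell and basophil markers summed to 41.2 to 224 CPM in LPS+antibody 72 h, with a median log2 difference of 2.02 from LPS 72 h and 1 of 4 called higher, and their part here was not tested.

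**Figure D5:**
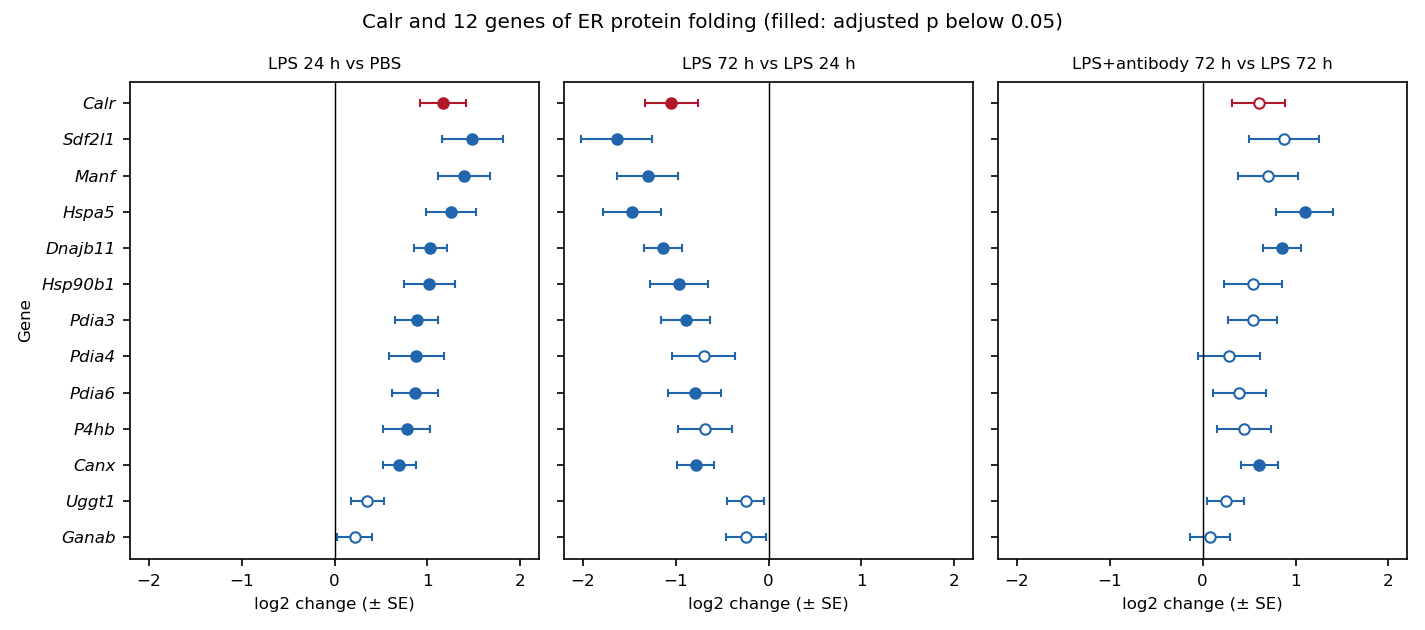
Log2 change of Calr (red) and 12 ER folding genes (blue) in 3 comparisons, with bars of 1 SE derived from the edgeR test and filled points where the adjusted p is below 0.05. At 24 h after LPS, Calr and 10 of the 12 partners are filled and to the right of 0, and from 24 to 72 h Calr and 8 of the 12 are filled and to the left of it.

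Of 16 regulators and early markers of granulocyte-monocyte progenitors, 5 were called higher and 2 lower at 24 h after LPS (median log2 change 0.38), a share near the 37.6% called over all tested genes. Cebpb, a factor of emergency granulopoiesis, rose by 1.50 (SE 0.33, adjusted p = 0.00299), and was called with each library left out. Ms4a3, a membrane protein of granulocyte-monocyte progenitors, rose by 1.75 (SE 0.63, adjusted p = 0.0396), a call lost without PBS replicate 2 or LPS 24 h replicate 1 or 3. Irf8, a factor of the monocyte and dendritic lineages, changed by -0.99 (SE 0.33, adjusted p = 0.0277), lost without PBS replicate 2 or 4 or LPS 24 h replicate 1 or 3. Fcnb, ficolin B, changed by -3.00 (SE 1.08, adjusted p = 0.0394), lost without PBS replicate 2, 3 or 4 or any 1 LPS 24 h library. Without LPS 24 h replicate 1 the number called higher fell to 2, and without LPS 24 h replicate 3 to 3. From 24 to 72 h, 3 were called higher and 2 lower, where 14.7% and 16.4% of all tested genes were: Irf8 rose by 1.60 (SE 0.36, adjusted p = 0.00442) with each library left out too, and Mgst1, a glutathione transferase, stood at 1.23, lost without LPS 24 h replicate 3. The falls, of Cebpb (-1.19) and Cebpa (-0.80), were lost without LPS 24 h replicate 1 or any 1 LPS 72 h library, and that of Cebpa also without LPS 24 h replicate 3. With antibody, 3 were called higher than PBS at 24 h (Cebpb 1.65, Csf2rb 1.36 and Plac8 0.93), where 11.7% of all tested genes were, and 2 at 72 h (Csf2rb 1.48 and Cebpb 1.18), where 6.81% were, with 0 lower at either time. Plac8 was lost without LPS+antibody 24 h replicate 2, and Cebpb at 72 h without PBS replicate 3 or 5 or LPS+antibody 72 h replicate 1 or 3. At 24 h after LPS the 5 stem cell markers had 0 called higher and 4 lower, and their summed level was 73.3 to 132 CPM against 198 to 412 CPM in PBS. Macrophage markers summed to 30.5 to 42.9 CPM against 219 to 2138 CPM in PBS. The part of these shifts in the changes of the granule genes and of the lists was not tested.

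Other lysosomal and azurophil granule genes gave calls in both directions. Of 11 considered at 24 h after LPS, 1 was called higher and 4 lower, a share near the 37.6% over all tested genes, with a median log2 change of -0.46. Lyz2, lysozyme M, was at 194, 960, 271, 235 and 242 CPM in PBS and at 90.0, 107 and 101 CPM at LPS 24 h. It fell by 1.94 on the log2 scale (SE 0.47, adjusted p = 0.00511), or by 1.25 without PBS replicate 2, its highest library. Gusb, beta-glucuronidase, stood at 0.64 (SE 0.18, adjusted p = 0.0127), lost without LPS 24 h replicate 1. Cd68, a lysosomal membrane protein of macrophages, stood at -1.22 (SE 0.44, adjusted p = 0.0407), lost without PBS replicate 2 or 5 or any 1 LPS 24 h library. From 24 to 72 h 1 was called higher, Lyz2 (1.85), and 3 lower, where 14.7% and 16.4% of all tested genes were. Ctsc, the peptidase that activates the granule serine proteases, fell by 1.12 on the log2 scale (SE 0.33, adjusted p = 0.0185), and Gusb by 0.63, both lost without LPS 24 h replicate 1 or LPS 72 h replicate 1 or 2. Cd63, a tetraspanin of granule membranes, stood at -1.08, and at -0.49 without LPS 24 h replicate 1 (adjusted p = 0.309); its call was lost also without LPS 24 h replicate 3 or LPS 72 h replicate 1 or 3. With antibody at 24 h, Ctsc (0.89, SE 0.29, adjusted p = 0.0356) and Gusb (0.56) were called higher than PBS and Ctsb, cathepsin B, lower (-1.01), where 24.2% of all tested genes were called. Those of Ctsc and Gusb were each lost with 5 of the 8 libraries left out in turn, LPS+antibody 24 h replicate 2 among them, and that of Ctsb without LPS+antibody 24 h replicate 2 or 3. At 72 h with antibody Ctsb was called lower than PBS (-0.98), where 6.43% of all tested genes were, a call lost without PBS replicate 5 or any 1 antibody library.

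Of 14 secondary and tertiary granule genes, 1 was called at 24 h after LPS, where 37.6% of all tested genes were, and the list's median was -0.29. It was Itgam, the CD11b integrin chain (-1.26, SE 0.27, adjusted p = 0.00268), which was also the 1 gene of the list called from 24 to 72 h (1.89, SE 0.30, adjusted p = 0.000451), where 31.1% of all tested genes were, and in the antibody's contrast at 72 h (-1.33, SE 0.29, adjusted p = 0.00851), where 15.1% were. These 3 calls were kept with each library left out. Cybb, a subunit of the phagocyte oxidase, was at 358, 117 and 127 CPM in LPS+antibody 72 h and at 34.5 to 130 CPM in PBS. It was called higher (1.55, SE 0.43, adjusted p = 0.032) where 13.2% of all tested genes were called, but stood at 0.85 without LPS+antibody 72 h replicate 1 (adjusted p = 0.204), and the call was lost also without PBS replicate 1, 3, 4 or 5.

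Of 8 serine protease inhibitors and cystatins, 2 were called lower at 24 h after LPS, where 18.5% of all tested genes were: Cst3, cystatin C (-0.61), and Serpinb6a (-0.93), each lost with 5 of the 8 libraries left out in turn, LPS 24 h replicates 2 and 3 and PBS replicates 2 and 5 among them. Cst3 was called higher from 24 to 72 h (1.25, SE 0.24, adjusted p = 0.00129), where 14.7% of all tested genes were, and lower in the antibody's contrast at 72 h (-1.32, SE 0.24, adjusted p = 0.00317), where 6.48% were, both with each library left out too. Against PBS at 72 h with antibody, 2 of the 8 were called higher (Serpina3f and Serpina3g) and 1 lower (Cst3, -0.68), where 13.2% of all tested genes were called. The Cst3 call was lost with 7 of the 8 libraries left out in turn. The 2 rises rested on 1 library. Serpina3f was at 574, 15.8 and 5.59 CPM with antibody and at 5.35 to 9.74 CPM in PBS, and its log2 change of 4.83 (SE 1.25, adjusted p = 0.024) became 0.63 without LPS+antibody 72 h replicate 1 (adjusted p = 0.719). Serpina3g was at 1819, 195 and 178 CPM against 115 to 200 CPM in PBS, and its change of 2.26 (SE 0.67, adjusted p = 0.0379) became 0.32 without that library (adjusted p = 0.722). At 24 h Serpina3f was at 236, 17.02 and 3.58 CPM with antibody, and its change of 3.61 (SE 1.21, adjusted p = 0.0418) became 0.56 without LPS+antibody 24 h replicate 1 (adjusted p = 0.768). These 3 calls were each lost also without PBS replicate 2, 3 or 5. The Serpina3 family holds closely similar copies, and how reads matching several genes were counted is not given, so these values are uncertain. The antibody's contrast at 72 h also called Irf8 lower (-1.47) and Csf2rb, a receptor chain for granulocyte-monocyte growth factor, higher (1.25). The first was lost without LPS+antibody 72 h replicate 1 or 2, and the second without LPS 72 h replicate 1 or 2 or LPS+antibody 72 h replicate 1. In the antibody's contrast at 24 h and in the antibody groups between 24 and 72 h, 0 genes of any of the 5 lists were called by edgeR, as for all tested genes.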

How the data were processed

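The authors deposited 1 table of raw read counts, whole numbers for 35321 gene symbols, with 17 columns matched to the libraries by name and 0 columns left over. The submitters' processing notes name HISAT2 2.2.0, Subread, featureCounts 2.1.1, R 4.3.2, DESeq2 and the build GRCm38. The annotation, the strand setting and the treatment of reads with several matches are not given in the sources used here. Of 50-base words of the 9 genes, at most 1.72% (Igfbp4) also occurred in another gene of GENCODE M21.

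Genes with a count of at least 10 in enough libraries and a total of at least 15 were kept (filterByExpr), which left 14920 genes with 99.93% of the counts. TMM factors scaled the library sizes, from which CPM (counts per library of a fixed size) was computed, with a prior count of 2 for log2 CPM. edgeR 4.0.16 in R 4.3.3 fitted 1 mean per group over all 17 libraries (quasi-likelihood test), and p-values were adjusted over all tested genes with a threshold of 0.05 for a call. The steps were tested on simulated data. DESeq2 1.42.0, voom in limma 3.58.1, other scalings, no filter, a 2-fold minimum, the compared groups alone, a replicate block and each library left out in turn were the alternatives. Replicate numbers 4 and 5 occur in PBS only, so with the replicate block these libraries do not inform comparisons with PBS. CPM per kilobase used exon lengths of GENCODE M21. Ratios to Mpo were compared by exact permutation tests over libraries.

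Some genes of the lists are not reported here. The 9 genes and the lists were chosen with earlier results of these data known. In each comparison described, all called genes of a list were named where there were 4 or fewer, otherwise the 2 largest rises and the 2 largest falls. Replicate numbers come from the titles. Deviations of libraries with the same number correlated above 0.1 in every pair for LPS 24 h against PBS (0.163 to 0.202) and LPS+antibody 72 h against PBS (0.116 to 0.206), and the block changed no call of the 9 genes there. In the other comparisons they ran from -0.365 to 0.723, with at least 1 pair below 0.1. The highest were those of replicates 1 (0.723) and 3 (0.697) between LPS+antibody 72 h and LPS+antibody 24 h, where replicate 2 gave -0.0217. Libraries numbered 1 or 3 in the antibody groups thus shared deviations more strongly than the pairs with PBS did.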

Additional observations from a re-analysis of the deposited data

Results flagged for a closer look

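Hp in PBS replicate 5, at 4.063 log2 CPM (16.6 CPM), lay apart from the other PBS libraries: its gap to the next was 0.727 of the group's range in log2 CPM, above the limit of 0.71 for 5 libraries. In CPM that share was 0.456, and for the other 8 of the 9 genes no PBS library passed the limit on either scale. None of the 9 genes passed the test of a difference between times in the antibody's contrast. In 4 genes of the accompanying lists, the antibody's contrast with LPS alone differed between 72 and 24 h by the test of that difference (edgeR's quasi-likelihood test, adjusted over all tested genes). For Hspa5 the difference was 1.521 on the log2 scale (SE 0.43, adjusted p = 0.0474) and for Dnajb11, its co-chaperone, 1.134 (SE 0.29, adjusted p = 0.0311), both higher with antibody at 72 h. For Itgam it was -1.863 (SE 0.41, adjusted p = 0.0177) and for Cst3, cystatin C, -1.363 (SE 0.33, adjusted p = 0.0265), both lower with antibody at 72 h. The test was lost for Hspa5 with 8, for Dnajb11 with 6, for Cst3 with 4 and for Itgam with 0 of the 12 libraries left out in turn, and for the first 3 with the replicate block (adjusted p = 0.0674, 0.0662 and 0.0701). Only groups of 4 or more libraries could be examined for outliers, which left PBS alone, and chance marks about 1 in 20 such groups.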

How the results depend on the processing

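The lowest count of the 9 genes was 236, with a counting error of 6.51%, and every group but PBS held 3 libraries. How far depth or the number of libraries limits the precision was not tested. Of 81 results (9 genes in 9 comparisons), 3 were called, 5 more were called under at least 1 alternative only, and 73 under none; 41 of those 73 changed sign under at least 1 alternative and no called result did. Calr at LPS 24 h against PBS was called in all 8 fits that left out a library (0.94 to 1.32) and under all 8 other settings (0.92 to 1.20). The number of the 9 genes called became 1 (Igfbp4) by voom at LPS 72 h against PBS; 2 (Calr and Igfbp4) with library totals or voom, and 0 to 1 with a library left out, from LPS 24 h to 72 h; 0 with a 2-fold minimum, 0 with the replicate block and 0 to 2 with a library left out at LPS+antibody 24 h against PBS, where Hp replaced Calr without PBS replicate 5; 1 (Calr) by DESeq2 or voom and 0 to 1 at LPS+antibody 72 h against PBS; and 1 (Igfbp4) with upper-quartile factors, library totals, DESeq2 or voom and 0 to 1 for the antibody at 72 h. The replicate block gave Calr 0.82 at LPS+antibody 24 h against PBS (adjusted p = 0.0696). Fewer degrees of freedom are part of that fit, and PBS replicates 4 and 5 do not inform its comparisons with PBS. Called ER folding partners ranged over libraries left out from 5 to 10 (LPS 24 h against PBS), 4 to 8 (LPS 72 h against 24 h), 0 to 7 (LPS+antibody 24 h against PBS) and 0 to 3 (antibody at 72 h). In the third of these they numbered 2 with upper-quartile factors or library totals, 7 by DESeq2 or in the compared groups alone, 8 by voom and 1 with the replicate block. Progenitor regulators called higher at LPS 24 h ranged from 2 to 6 with a library left out and numbered 3 with library totals or the replicate block. The causes of these differences were not tested. Over all genes, calls at LPS 24 h against PBS (5616) ranged from 3361 to 6828, at LPS 72 h (3) from 0 to 2170, at LPS+antibody 24 h (3605) from 877 to 4230, at LPS+antibody 72 h (1975) from 374 to 3053, for the antibody at 72 h (2256) from 769 to 4433, and for the interaction (947) from 231 to 1709. Upper-quartile factors shifted the all-gene median at LPS 24 h against PBS from -0.03 to -0.16 and the share of calls that were higher from 50.7% to 36.8%. That share went from 47.2% to 59.2% from LPS 24 h to 72 h, from 48.3% to 32.5% and 51.4% to 32.8% for the antibody groups against PBS, from 57.1% to 42.4% for the antibody at 72 h and from 63.5% to 49.7% for the interaction; with library totals the first was 28%.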
